A study of Mus musculus with 11 samples.

Results

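The genes described are 43 mouse genes of DNA replication, listed by name: the factors that license replication origins, the enzymes that copy DNA at the fork and the enzymes that supply nucleotides. They were followed in cultured hippocampal neurons that received a synthetic copy of the microRNA miR-181a-5p. All 43 matched exactly 1 gene in the count tables, which hold 48709 genes, and all 43 had enough reads to be tested, among 17365 genes tested in all. Primary neurons from the hippocampi of E17 embryos of CD1 mice (embryonic day 17) were treated at day 10 in vitro (DIV10) and harvested 48 h later, at day 12. Of the 11 samples, 6 received lipid nanoparticles with a negative control oligonucleotide (control) and 5 received nanoparticles with the miR-181a-5p mimic (mimic), and, per the study's methods, both received ApoE4, an apolipoprotein through which cells take up lipid particles. Hippocampi of several embryos were pooled before plating, and these cultures hold neurons and glia. Nothing in the labels says that the samples of a group came from separate cultures, so the p-values measure only the spread between these samples, which may be technical. Whether an inhibitor of cell division was added is not given in the sources used here.

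A cell copies its DNA in ordered steps. The origin recognition complex, Cdc6 and Cdt1 load rings of Mcm2 to Mcm7 onto origins (licensing), Cdc45 and the GINS complex turn each ring into a working helicase, and polymerases held by the Pcna clamp then copy both strands while nucleotide-making enzymes feed them. Most of these genes are transcribed as a cell nears S phase, under E2F transcription factors. Mature neurons have left the cell cycle, whereas glia and progenitors can divide, and several of the proteins also repair DNA in cells that do not.

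The agents differ in sequence as follows, 5′ to 3′, with the seed of the mimic (bases 2 to 8, the stretch that pairs with target RNAs) in capitals. The mimic is identical to the mature mouse miR-181a-5p in RefSeq.
miR-181a-5p mimic: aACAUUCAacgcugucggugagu
negative control oligonucleotide: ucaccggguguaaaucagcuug
The DNA complement of the seed, TGAATGT, occurred in the longest annotated 3′ untranslated region (3′UTR) of 1 of the 43 replication genes, against 2793 of the 14512 tested genes with such a region (19.2%). The median 3′UTR was shorter in the replication genes, 685 bases against 1374. The 1 gene was Pcna, the sliding clamp, with the complement at chr2:132249390-132249396 (GRCm38, minus strand), bases 220 to 226 of its 3′UTR, in capitals below with 10 bases on each side.
Pcna 3′UTR site: tttgttaacaTGAATGTttctgcttta
Pcna had a log2 fold change of 0.14 (SE 0.0572) and did not pass the test (edgeR adjusted p = 0.197). No other replication gene held the complement there.

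Total counts ranged from 17287168 to 48091231 reads per sample, the deepest being control replicate 1, and a gene with 3 reads stood at 0.0631 to 0.175 CPM (the read count scaled to a common library size) depending on the sample. The replication genes had between 10 and 3467 reads in a sample and none was at 0 in any sample. Neuronal markers summed to 8995 to 9224 CPM in control samples and 8560 to 8837 in mimic samples over 10 genes, so the labelled cell type was present throughout.

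Replication transcripts were slightly and broadly higher in the mimic samples. Of the 43 genes, 8 rose, meaning a higher level at an adjusted p under 0.05: Pole, Rrm2, Mcm3, Uhrf1, Clspn, Mcm6, Lig1 and Mcm7. None fell. In GENCODE M21 (GRCm38) the 8 genes lie at chr5:110286306-110337474 (Pole), chr12:24708241-24714146 (Rrm2), chr1:20802968-20820312 (Mcm3), chr17:56303321-56323486 (Uhrf1), chr4:126556935-126593903 (Clspn), chr1:128331590-128359664 (Mcm6), chr7:13277283-13311433 (Lig1) and chr5:138164583-138172422 (Mcm7). Their fold changes were modest, from 1.16-fold (Mcm6 and Mcm7) to 1.32-fold (Clspn), with a median of 1.23. These counts are 18.6% of the 43 called higher, where 1.08% of all tested genes were called higher (188) and 1.77% were called lower (307). Direction extended beyond the called genes. The log2 fold change was above 0 in 40 of 43 replication genes, where 49.9% of all tested genes were above 0. The 3 below 0 were Rpa3, Dnmt1 and Rfc1, and the direction of Rfc1 was the opposite under 6 other processing settings, with values of at most 0.0232. Rfc1 was also above 0 without control replicate 2, 4 or 6 or mimic replicate 1 or 3, with values of at most 0.0298. Fen1, Rpa1 and Tipin, close to 0, fell on its other side under 3, 3 and 1 of the other fits. The median log2 fold change of the 43 genes was 0.16, against -0.0001 over all tested genes. In 5 of the genes (Orc6, Mcm3, Mcm6, Pole and Uhrf1) every mimic sample lay above every control sample, a pattern that 1.16% of all tested genes had. At an unadjusted p under 0.05, 18 of the 43 were counted and 2727 of all 17365. The test was edgeR's quasi-likelihood test on the counts with Benjamini-Hochberg adjustment over all 17365 genes. With upper-quartile scaling the split of all calls was 234 higher and 226 lower, and the 8 replication genes remained called. The count of called replication genes was 2 without control replicate 1, 3 without mimic replicate 2, 3 without mimic replicate 4, and 5 without control replicate 3, 4 or 6. In bulk RNA, more cells of a type and more RNA per cell cannot be told apart.

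**Figure D1:**
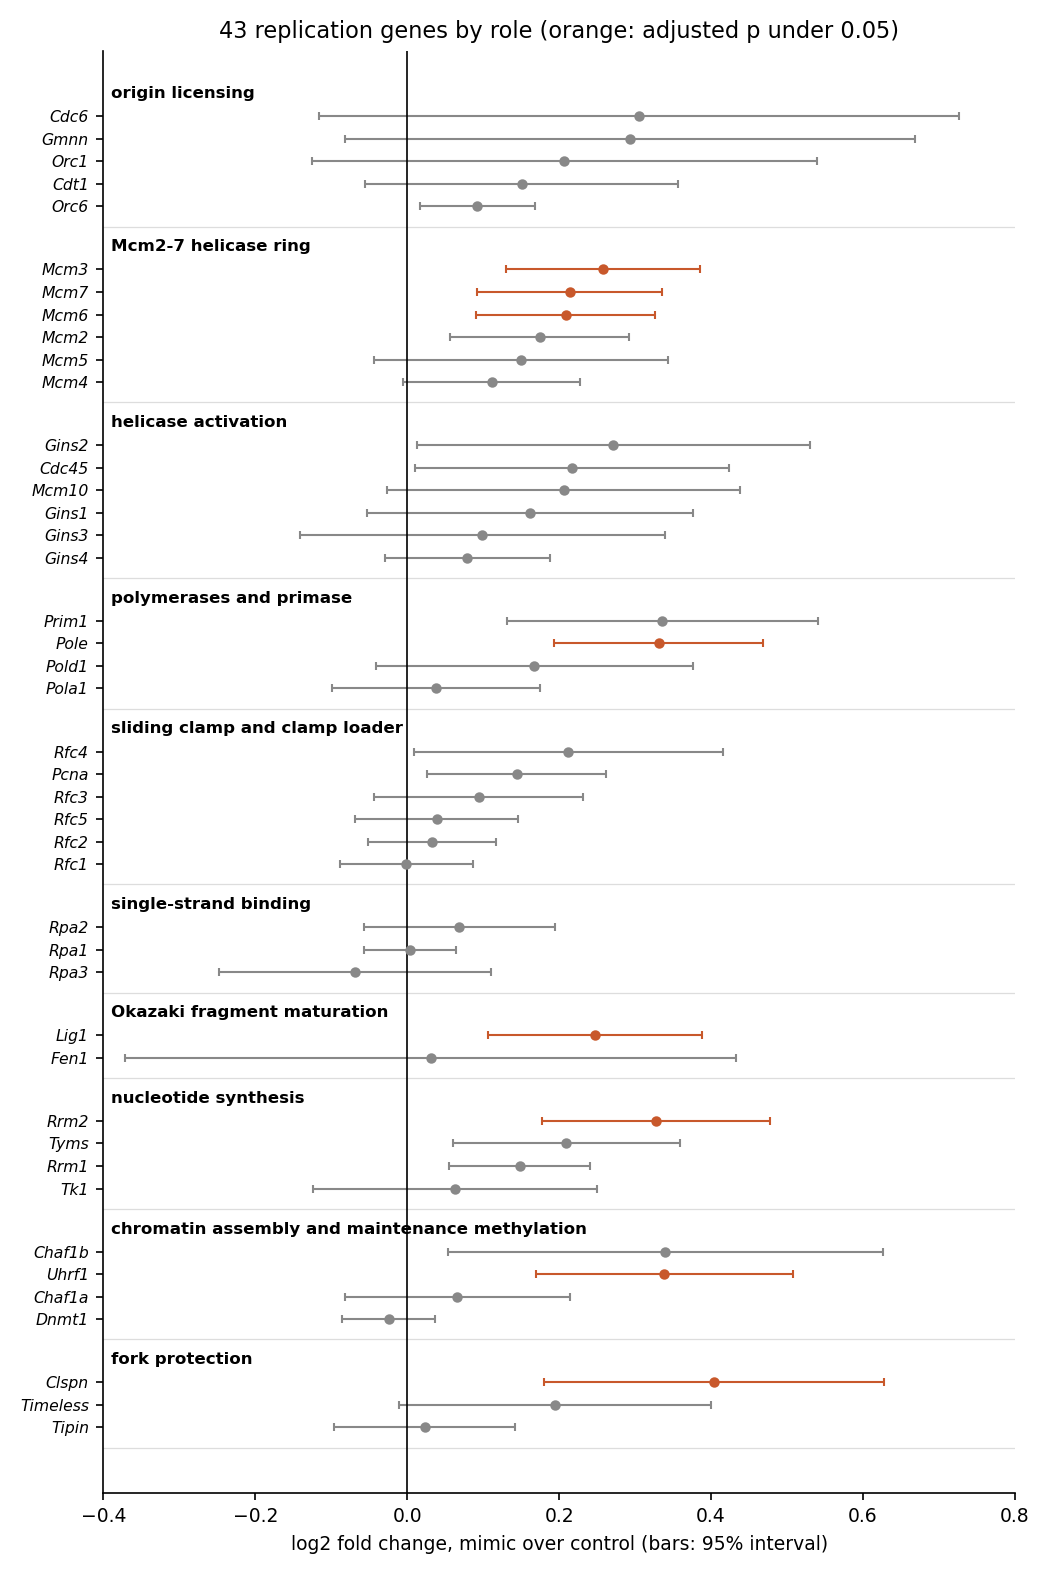
Log2 fold change of the 43 replication genes (mimic over control, x axis), grouped by role, with 95% intervals from the edgeR fit and the 8 called genes in orange. Nearly all points lie to the right of 0, with 3 to the left. Among the roles, single-strand binding has the median nearest 0 (0.0035), with Rpa2 at 0.07 and Rpa3 at -0.07.

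The licensing factors mark origins before S phase, and none of the 5 passed the test. Orc6, a subunit of the origin recognition complex, was the most abundant of them per length, at 11.7 ± 0.385 CPM per kilobase of exon in control (SD, n = 6). Its level was 27.1 to 29.7 CPM in control (median 29.2) and 31.2, 31.0, 30.9, 30.7 and 30.5 CPM in mimic replicates 1 to 5. The groups did not overlap, and the difference was small, a log2 fold change of 0.09 (edgeR adjusted p = 0.196, SE 0.0367). Orc1, the largest subunit of that complex, Cdc6, the loader of the Mcm rings, Cdt1, its partner in loading, and Gmnn, which encodes geminin, the inhibitor of Cdt1, were scarce, at 0.791 to 2.92 CPM in control. Their log2 fold changes were 0.21, 0.31, 0.15 and 0.29, with 95% intervals that all held 0.

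The Mcm2 to Mcm7 ring is the core of the helicase, and 3 of its 6 subunits rose. All 6 subunits had a log2 fold change above 0, from 0.11 (Mcm4) to 0.26 (Mcm3), with a median of 0.19. Mcm3 had 7.82 to 9.51 CPM in control (median 8.58) and 9.94, 9.87, 9.95, 10.4 and 10.9 CPM in mimic. Every mimic sample was above the highest control sample, with a log2 fold change of 0.26 (edgeR adjusted p = 0.0204, SE 0.0621). Mcm6 ranged from 12.2 to 13.8 CPM in control (median 13.6), and the mimic samples had 13.8, 16.9, 14.6, 15.1 and 15.02 CPM. The lowest mimic sample lay just above the highest control sample, and mimic replicate 2 stood highest. The log2 fold change of Mcm6 was 0.21 (edgeR adjusted p = 0.044, SE 0.0574). Mcm7 had 10.1 to 12.6 CPM in control (median 10.9) and 12.9, 12.9, 11.9, 12.9 and 12.0 CPM in mimic. Here the groups overlapped, because control replicate 5 reached the mimic range. Its log2 fold change was 0.21 (edgeR adjusted p = 0.047, SE 0.0595), and 12.6% of its exon bases are shared with exons of other genes, Ap4m1 and Cops6 on the opposite strand among them, so part of its reads is uncertain unless counting used strand. The remaining subunits did not pass. Mcm2 came closest (log2 fold change 0.17, edgeR adjusted p = 0.106), and passed when mimic replicate 5, its lowest mimic sample, was left out (edgeR adjusted p = 0.0251). Mcm4, the most abundant subunit per length at 4.2 ± 0.185 CPM per kilobase in control (SD, n = 6), had 13.9 to 15.8 CPM in control and 13.6 to 17.96 CPM in mimic. Mcm5 had 6.8 ± 1.04 CPM (SD, n = 6) in control samples against 7.49 ± 0.796 CPM (SD, n = 5) in mimic samples. The call of Mcm3 was lost without mimic replicate 4 (edgeR adjusted p = 0.0541). It was also lost with the replicate number as a block, without control replicate 6 (edgeR adjusted p = 0.0613). The calls of Mcm6 and Mcm7 were the more fragile. Mcm6 was lost without control replicate 1, 3 or 5 or mimic replicate 2, 4 or 5 (edgeR adjusted p 0.0567 to 0.198), and Mcm7 without control replicate 1, 2, 3, 4 or 6 or mimic replicate 1, 2 or 4 (edgeR adjusted p 0.0554 to 0.132). Both were also lost with the authors' normalized table (limma adjusted p = 0.0714 and 0.0727) and with robust estimation off (edgeR adjusted p = 0.0509 and 0.0512), and Mcm6 with control replicate 1 thinned to a lower depth (edgeR adjusted p = 0.0945). With the replicate block Mcm6 and Mcm7 were lost as well (edgeR adjusted p = 0.054 and 0.094).

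**Figure D2:**
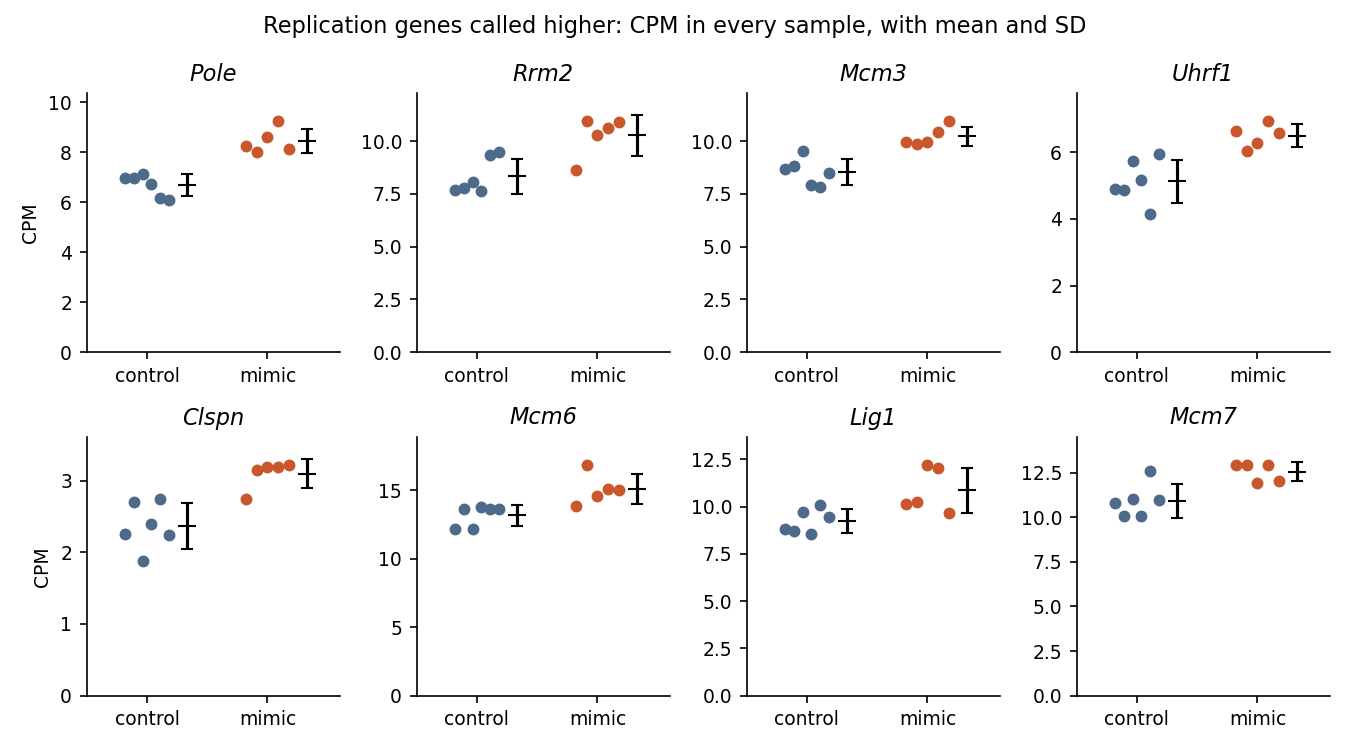
CPM (y axis, from 0) of the 8 called replication genes in each of the 6 control (blue) and 5 mimic (orange) samples, with the group mean and SD in black. The groups are separate for Pole, Mcm3, Uhrf1 and Mcm6, and overlap by 1 or more samples for Rrm2, Clspn, Lig1 and Mcm7.

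The genes that switch the loaded ring on did not pass the test, although all 6 were above 0. Cdc45, a helicase subunit that travels with the fork, had 3.41 ± 0.452 CPM (SD, n = 6) in control samples against 3.95 ± 0.373 CPM (SD, n = 5) in mimic samples, for a log2 fold change of 0.22 (edgeR adjusted p = 0.287). Mcm10, which helps start unwinding, had a log2 fold change of 0.21 (edgeR adjusted p = 0.399). Among the 4 subunits of the GINS complex the log2 fold change was 0.16 for Gins1, 0.27 for Gins2, 0.10 for Gins3 and 0.08 for Gins4. Gins4 was by far the most abundant of the 4 per length, at 12.7 ± 0.725 CPM per kilobase in control (SD, n = 6), followed by Gins1 at 1.73 CPM per kilobase. Gins4 had 16.2 to 18.5 CPM in control (median 16.9) and 18.1, 18.6, 20.1, 17.01 and 17.4 CPM in mimic. Of the 5 mimic samples, 3 lay within the control range. Of the exon bases of Gins2, 67.3% are shared with Gse1 on the opposite strand, so its reads are uncertain.

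Among the polymerases, Pole rose, and its call held in all 20 other fits. Pole encodes the catalytic subunit of DNA polymerase epsilon, which copies the leading strand. It had 6.11 to 7.12 CPM in control (median 6.85) and 8.26, 8.01, 8.6, 9.24 and 8.15 CPM in mimic, with a clear gap between the groups. The log2 fold change was 0.33 (edgeR adjusted p = 0.00662, SE 0.0672), the smallest p among the 43 genes. Prim1, the primase subunit that makes the RNA primers, had a fold change of the same size, 0.34 on the log2 scale (SE 0.0996), at a lower level. Prim1 had 2.96 to 3.68 CPM in control (median 3.37) and 3.85, 4.06, 4.65, 3.51 and 4.88 CPM in mimic. Only mimic replicate 4 lay inside the control range. Prim1 narrowly missed the threshold (edgeR adjusted p = 0.0631) and passed without that sample (edgeR adjusted p = 0.0404). Pold1, the catalytic subunit of polymerase delta on the lagging strand, had a log2 fold change of 0.17 (edgeR adjusted p = 0.47). Pola1, the catalytic subunit of polymerase alpha, which extends the primers, was nearly level at 8.34 ± 0.612 CPM (SD, n = 6) in control samples against 8.63 ± 0.573 CPM (SD, n = 5) in mimic samples.

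The sliding clamp and its loader had no called gene. Pcna had 11.2 to 13.1 CPM in control (median 11.9) and 13.7, 13.1, 13.6, 13.7 and 11.8 CPM in mimic. Mimic replicate 5 fell within the control range. The 5 subunits of the clamp loader differed among themselves. Rfc4 had a log2 fold change of 0.21 and Rfc3 of 0.09, whereas Rfc5, Rfc2 and Rfc1 lay between -0.0011 and 0.04. Rfc1, the large subunit, was the most abundant gene of this group per length, and had 38.5 ± 2.27 CPM (SD, n = 6) in control samples against 38.5 ± 2.29 CPM (SD, n = 5) in mimic samples, with a 95% interval of its log2 fold change from -0.089 to 0.087. Rfc2, Rfc4 and Rfc5 share 10.7% to 15.1% of their exon bases with a gene on the opposite strand.

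The single-strand binding proteins, which coat unwound DNA in replication and in repair, had values close to 0. Rpa1, the large subunit and the most abundant of the 43 genes per length at 13.1 ± 0.229 CPM per kilobase in control (SD, n = 6), had 71.7 to 75.2 CPM in control (median 72.6) and 70.9, 73.4, 75.6, 75.0 and 70.1 CPM in mimic. The mimic samples lay on both sides of the control range. Its log2 fold change was 0.0035, with a 95% interval from -0.057 to 0.064, and turned negative under 3 other fits. Rpa2 and Rpa3, the smaller subunits, had log2 fold changes of 0.07 and -0.07.

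Lig1, the DNA ligase that seals Okazaki fragments on the lagging strand, rose. It had 8.53 to 10.1 CPM in control (median 9.13) and 10.1, 10.2, 12.2, 12.0 and 9.67 CPM in mimic. Mimic replicates 3 and 4 stood highest, and replicate 5 lay within the control range. The log2 fold change was 0.25 (edgeR adjusted p = 0.0467, SE 0.0687), and the call was lost without control replicate 1, 2, 4 or 6 or mimic replicate 2, 3 or 4 (edgeR adjusted p 0.0502 to 0.158), with the authors' normalized table (limma adjusted p = 0.0755) and with robust estimation off (edgeR adjusted p = 0.0557). The call of Lig1 was also lost with the replicate block (edgeR adjusted p = 0.0692). Fen1, the nuclease that trims the flap of each fragment, could not be judged. It had only 10 to 36 reads per sample, 84.2% of its exon bases are shared with other genes, Tmem258 among them, and its log2 fold change of 0.03 had a 95% interval from -0.37 to 0.43.

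Of the enzymes that supply deoxynucleotides, Rrm2 rose and the others did not pass. Rrm2 encodes the small, cell-cycle-regulated subunit of ribonucleotide reductase. It had 7.63 to 9.46 CPM in control (median 7.91) and 8.62, 10.9, 10.3, 10.6 and 10.9 CPM in mimic. Mimic replicate 1 lay among the control samples, and the other 4 were above all of them. The log2 fold change was 0.33 (edgeR adjusted p = 0.0123, SE 0.0732). The call was lost without control replicate 1 (edgeR adjusted p = 0.0534) and without mimic replicate 2 (edgeR adjusted p = 0.0572). Rrm1, the large subunit of the same enzyme, had 25.0 ± 0.9754 CPM (SD, n = 6) in control samples against 27.7 ± 1.87 CPM (SD, n = 5) in mimic samples, for a log2 fold change of 0.15 that missed the threshold (edgeR adjusted p = 0.0734) and passed without mimic replicate 3 (edgeR adjusted p = 0.037). Tyms, thymidylate synthase, had a log2 fold change of 0.21 (edgeR adjusted p = 0.126). Tk1, the thymidine kinase of the salvage route, had 0.06 (edgeR adjusted p = 0.828).

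Of the genes that restore chromatin behind the fork, 1 of 4 rose. Uhrf1, which reads hemimethylated DNA and recruits the maintenance methyltransferase, had 4.14 to 5.93 CPM in control (median 5.03) and 6.64, 6.04, 6.27, 6.93 and 6.59 CPM in mimic. The groups did not overlap, with a log2 fold change of 0.34 (edgeR adjusted p = 0.0221, SE 0.0824). This call was lost without control replicate 1 (edgeR adjusted p = 0.0774) and without mimic replicate 4 (edgeR adjusted p = 0.0748). Dnmt1, the methyltransferase that Uhrf1 recruits, did not pass and lay slightly below 0. Dnmt1 was far more abundant, at 9.87 ± 0.277 CPM per kilobase in control against 1.2 for Uhrf1, and had 72.8 ± 2.05 CPM (SD, n = 6) in control samples against 71.5 ± 1.86 CPM (SD, n = 5) in mimic samples, for a log2 fold change of -0.02 with a 95% interval from -0.086 to 0.037. The subunits of chromatin assembly factor 1, which deposits histones on new DNA, had log2 fold changes of 0.34 for Chaf1b (edgeR adjusted p = 0.214) and 0.07 for Chaf1a (edgeR adjusted p = 0.753). Of the exon bases of Chaf1a, 52.5% are shared with Ubxn6.

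Clspn, which encodes claspin, the adaptor that relays a stalled fork to the checkpoint kinase, had the largest fold change of the 43 genes. It had 1.88 to 2.74 CPM in control (median 2.32) and 2.74, 3.15, 3.19, 3.19 and 3.22 CPM in mimic. Mimic replicate 1 lay within the control range and the other 4 were tightly grouped above it. The log2 fold change was 0.40 (edgeR adjusted p = 0.0393, SE 0.109). The call was lost with DESeq2 (adjusted p = 0.0603), with the authors' normalized table (limma adjusted p = 0.0611), with control replicate 1 thinned to a lower depth (edgeR adjusted p = 0.0981) and without control replicate 1, 3, 4 or 6 or mimic replicate 2, 3, 4 or 5 (edgeR adjusted p 0.0572 to 0.114). It was also lost with the replicate block (edgeR adjusted p = 0.121). Timeless, which holds polymerase and helicase together, had a log2 fold change of 0.19 (edgeR adjusted p = 0.357). Tipin, its partner and the most abundant of these 3 per length at 5.18 ± 0.183 CPM per kilobase in control (SD, n = 6), had 9.68 ± 0.343 CPM (SD, n = 6) in control samples against 9.89 ± 0.556 CPM (SD, n = 5) in mimic samples.

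The median difference was smaller in the most abundant replication genes. Among the 6 replication genes above 20 CPM in control (Rpa1, Dnmt1, Rfc1, Orc6, Rfc2 and Rrm1), none was called and the median log2 fold change was 0.018, against -0.0081 for all 7692 tested genes at that level, of which 0.897% were called higher. Within these 6 the log2 fold change was 0.15 for Rrm1, as large as the median of the next class, and 0.09 for Orc6. Between 5 and 20 CPM, 7 of 20 were called and the median was 0.15, against 0.012 for 3459 tested genes, of which 1.68% were called higher. Under 5 CPM, 1 of 17 was called and the median was 0.21, against 0.024 for 6214 tested genes, of which 0.982% were called higher. Across the 43 genes, Spearman's rho between the log2 fold change and the control CPM was -0.501, and across all tested genes it was -0.126, both given as descriptions since genes share libraries and low counts are noisier.

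**Figure D3:**
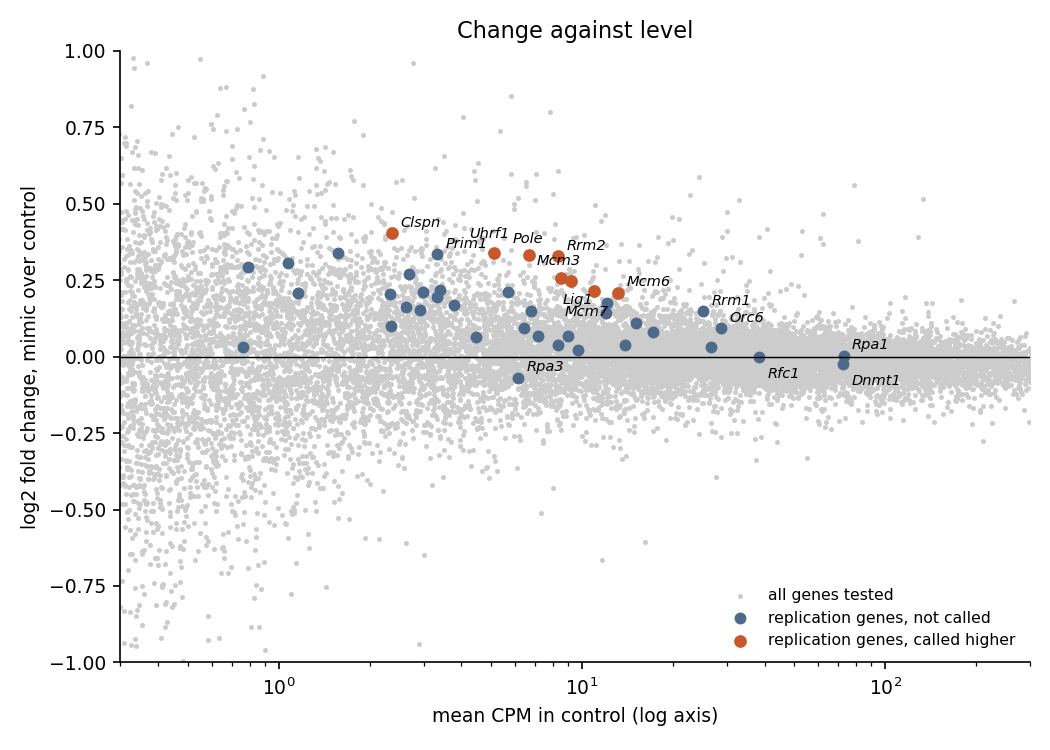
Log2 fold change (mimic over control, y axis) against mean CPM in control (log x axis) for all tested genes within the axes (grey), replication genes not called (blue) and called (orange). The replication genes lie mostly above 0 at low and middle levels and differ among themselves above 20 CPM, where Rpa1, Dnmt1, Rfc1 and Rfc2 lie between -0.02 and 0.03, Orc6 at 0.09 and Rrm1 at 0.15.

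Sample by sample, the replication genes separated the groups. Each gene's log2 CPM was taken relative to its mean over the 11 samples, and the median over the 43 genes was -0.0914, -0.0384, -0.0234, -0.0733, -0.0321 and -0.0635 in control replicates 1 to 6. The same median was 0.0392, 0.084, 0.1159, 0.0911 and 0.0759 in mimic replicates 1 to 5. All mimic samples were above all control samples, with mimic replicate 1 the lowest and replicate 3 the highest. The summed level of the 43 genes gave the same order of groups, 491 to 504.3 CPM in control and 518.1 to 535.8 CPM in mimic. The 35 genes that were not called also had separate groups, -0.0835 to -0.0153 in control and 0.0392 to 0.1089 in mimic. Within groups the genes shared little variation. The median correlation between pairs of the 43 genes, over deviations from the group means, was 0.02, whereas it was 0.244 between pairs of the 20 mitosis genes.

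**Figure D4:**
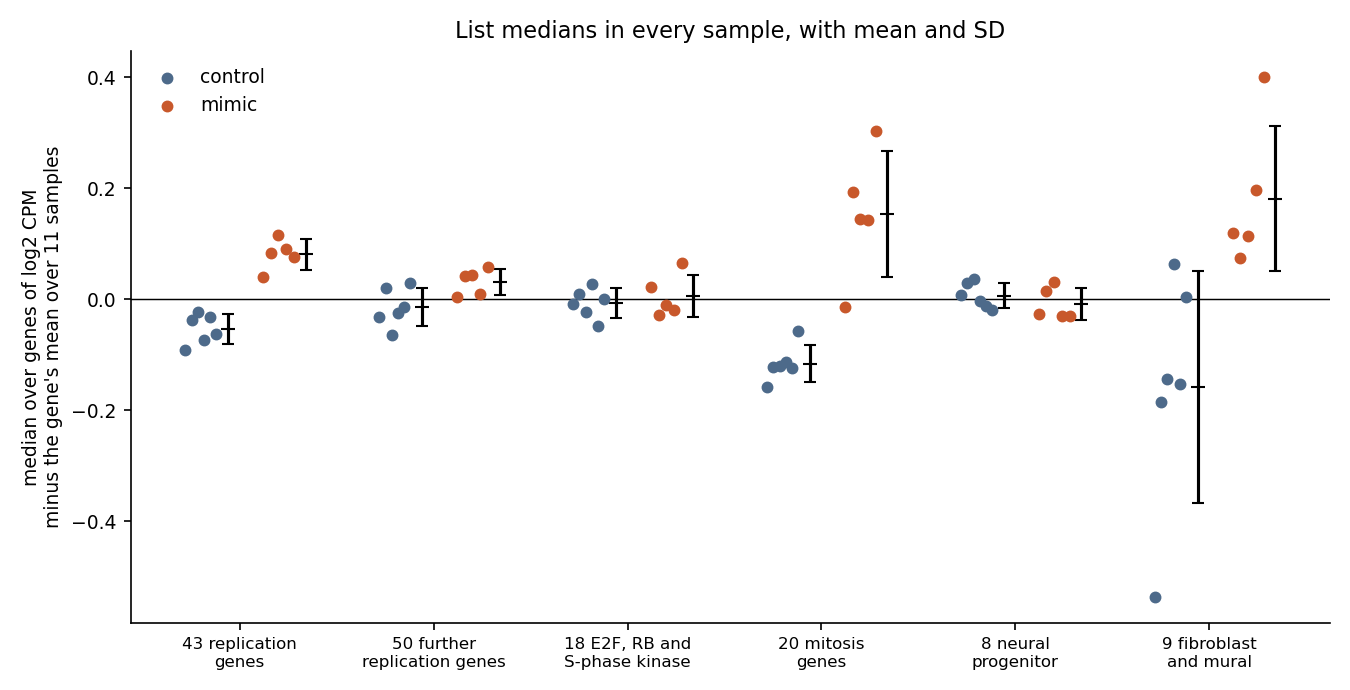
Median over the genes of a list of log2 CPM relative to each gene's mean over the 11 samples (y axis), in each control (blue) and mimic (orange) sample, with the group mean and SD in black. The groups are separate for the 43 replication genes and the 20 mitosis genes and for the 9 fibroblast and mural genes, and overlap for the other 3 lists.

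Among 50 further replication genes, 4 rose, none fell, and 37 were above 0, with a median log2 fold change of 0.053. Of these genes 8% were called higher and 74% were above 0, against 1.08% and 49.9% of all tested genes. Pole3, a histone-fold subunit of polymerase epsilon, had 25.9 to 30.1 CPM in control and 30.9 to 32.8 in mimic, a log2 fold change of 0.15 (edgeR adjusted p = 0.0383, SE 0.0399). Chtf18, a subunit of an alternative clamp loader, had a log2 fold change of 0.56 (edgeR adjusted p = 0.0352, SE 0.149). Asf1b, a histone chaperone of dividing cells, had a log2 fold change of 0.61 (edgeR adjusted p = 0.0237, SE 0.15). The 3 genes with the next smallest p were Pclaf, a Pcna-binding factor, at 0.54 (edgeR adjusted p = 0.0562), Atad5, which unloads the clamp, at 0.18 (edgeR adjusted p = 0.114) and Atr, the checkpoint kinase, at 0.09 (edgeR adjusted p = 0.235). The count of called genes in this list fell to 0 without control replicate 1, to 1 without control replicate 4 or mimic replicate 1, 2 or 5, and to 2 without control replicate 3 or mimic replicate 4.

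The regulators of these genes lay on both sides of 0. Of 18 E2F, RB and S-phase kinase genes, 2 rose and 9 lay on each side of 0, with a median log2 fold change of -0.0008. The 2 were 11.1% of the list, where 1.08% of all tested genes were called higher. Ccna2, cyclin A2, which drives S phase, rose by a log2 fold change of 0.35 (edgeR adjusted p = 0.0203, SE 0.0838). E2f8, an E2F family repressor that is itself an S-phase gene, rose from 0.87 ± 0.112 CPM (SD, n = 6) to 1.39 ± 0.37 (SD, n = 5), with an edgeR adjusted p of 0.0352, and mimic replicate 1 lay within its control range. The call of Ccna2 was lost without control replicate 1 or mimic replicate 2 (edgeR adjusted p 0.0683 to 0.086). That of E2f8 was lost without control replicate 1, 2, 5 or 6 or mimic replicate 2, 3, 4 or 5 (edgeR adjusted p 0.0575 to 0.114). The 3 with the next smallest p were E2f6 (-0.09), E2f1 (0.10) and Cdk2 (0.16), with edgeR adjusted p from 0.365 to 0.422. All 20 mitosis genes were above 0 and 8 were called higher (40%), with a median log2 fold change of 0.32. Over all tested genes 49.9% were above 0 and 1.08% were called higher. The 8 were Prc1, Top2a, Bub1b, Tpx2, Cdc20, Cdk1, Bub1 and Kif20a, with log2 fold changes from 0.28 (Tpx2) to 0.52 (Bub1b), and the next 3 by p were Aurka (0.34), Ccnb1 (0.53) and Mki67 (0.19), with edgeR adjusted p from 0.0501 to 0.0715. The calls of Prc1, Top2a, Bub1b and Tpx2 held in all 11 fits that left out 1 sample. The count was 4 without mimic replicate 2 and 5 without control replicate 1 or mimic replicate 4 or 5.

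Markers of other cells were read in the same samples. The 9 fibroblast and mural markers summed to 265.1 to 399.3 CPM in control and 409.1 to 542.2 CPM in mimic. These ranges did not overlap, and 7 of the 9 were above 0, although none was called higher and Rgs5, a pericyte gene, was called lower. Neural progenitor markers, 7 of 8 tested, had no call, with sums of 884.1 to 923.6 CPM in control and 846.8 to 936.5 in mimic, and Eomes was near 0 throughout. The 10 neuronal markers held 2 called lower (Slc17a7 and Camk2a), with 9 below 0. Their sums were lower in mimic without overlap, at 8995 to 9224 CPM in control and 8560 to 8837 in mimic. Astrocyte markers summed to 4901 to 5341 CPM in control and 4497 to 4813 in mimic, with 1 of 9 called lower (Slc1a2). The astrocyte ranges did not overlap either, with the mimic sums lower. The sums of the oligodendrocyte lineage were 314.9 to 380.9 and 287.7 to 331.2 CPM, and those of microglia 14.3 to 15.12 and 13.6 to 14.74 CPM, with no call in either list. Endothelial markers summed to 33.49 to 41.55 and 34.45 to 43.64 CPM, with Cdh5 called higher. The calls of Slc17a7, Camk2a and Rgs5 were lost without control replicate 1, mimic replicate 2 or mimic replicate 4, among others (edgeR adjusted p 0.0515 to 0.122), and those of Slc1a2 and Cdh5 held in all 11 fits that left out 1 sample. The part of any of these cells in the replication gene differences was not tested.

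The sequence before the transcript start was read for the 35 replication genes with an entry in RefSeq's promoter table (GRCm38.p6). The words searched on both strands of the 250 bases before each listed start were 4 forms of the E2F site (TTTCCCGC, TTTCGCGC, TTTGCCGC and TTTGGCGC), the NF-Y core CCAAT, the GC box GGGCGG and TTTGAA, the cell cycle homology word. An E2F form occurred in 10 of the 35 genes (28.6%), against 3.62% of 12224 tested genes with a promoter, 14.6% of 41 further replication genes and 5.88% of 17 mitosis genes. CCAAT occurred in 24 of 35 (68.6%) against 40% of all, GGGCGG in 23 of 35 (65.7%) against 61.2%, and TTTGAA in 5 of 35 (14.3%) against 12.9%. The median GC content was 58% in the replication genes and 59.6% in all. By call, 3 of the 7 called genes with an entry and 7 of the 28 others held an E2F form. Including the 50 bases after the start, these were 6 of 7 and 9 of 28, against 4.39% of all. Tipin, Pole, Gins1, Gmnn, Gins4, Mcm4, Rfc2 and Gins2 had no entry. A match is a description of the letters, not of a bound site.

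Uhrf1 and Mcm6, called genes with an E2F form before the start, show what such a promoter looks like, printed on the gene's strand with E2F forms in capitals and the start just after the last base (RefSeq, GRCm38.p6). In Mcm6 the first pair of forms overlaps, 1 on each strand, and another stands at -47. The Uhrf1 bases precede 1 of its 2 listed starts and lie in an intron of a longer annotated transcript, clear of any exon in GENCODE M21.
Uhrf1, chr17:56304063-56304312, plus strand: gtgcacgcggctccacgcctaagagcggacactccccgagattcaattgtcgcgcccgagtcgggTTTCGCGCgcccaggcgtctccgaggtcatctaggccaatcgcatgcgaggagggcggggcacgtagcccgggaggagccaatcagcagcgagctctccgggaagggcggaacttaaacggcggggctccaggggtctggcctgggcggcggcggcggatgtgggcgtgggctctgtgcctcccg
Mcm6, chr1:128359706-128359955, minus strand: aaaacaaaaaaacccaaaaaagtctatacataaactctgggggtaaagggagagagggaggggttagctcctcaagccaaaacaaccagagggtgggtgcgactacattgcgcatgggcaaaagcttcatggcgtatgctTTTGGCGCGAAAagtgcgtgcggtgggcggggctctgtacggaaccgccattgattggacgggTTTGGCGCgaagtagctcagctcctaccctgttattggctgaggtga
The other 8 genes with a form are shown by 30 bases around it. In Mcm5 2 forms overlap, 1 on each strand. The Mcm7 form lies at -165 from 1 of 2 listed starts, inside exons of Mcm7 and of Ap4m1. The forms of Rfc3, Orc1, Gins3 and Dnmt1, the last before 1 of 3 listed starts, also stand in windows that overlap annotated exons of their own genes in GENCODE M21.
Mcm7, chr5:138172030-138172059, minus strand: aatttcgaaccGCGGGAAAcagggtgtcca
Mcm5, chr8:75109349-75109378, plus strand: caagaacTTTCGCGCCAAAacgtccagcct
Cdc6, chr11:98908002-98908031, plus strand: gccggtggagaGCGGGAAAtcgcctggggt
Rfc3, chr5:151651209-151651238, minus strand: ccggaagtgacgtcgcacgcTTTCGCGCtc
Orc1, chr4:108579416-108579445, plus strand: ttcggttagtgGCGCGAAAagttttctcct
Gins3, chr8:95633507-95633536, plus strand: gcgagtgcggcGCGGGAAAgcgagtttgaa
Dnmt1, chr9:20952824-20952853, minus strand: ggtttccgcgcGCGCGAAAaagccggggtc
Pola1, chrX:93632275-93632304, minus strand: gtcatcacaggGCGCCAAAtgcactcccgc
The forms are shared by called genes such as Mcm6 and Mcm7 and by genes that did not pass, such as Dnmt1 (log2 fold change -0.02) and Pola1 (0.04).

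**Figure D5:**
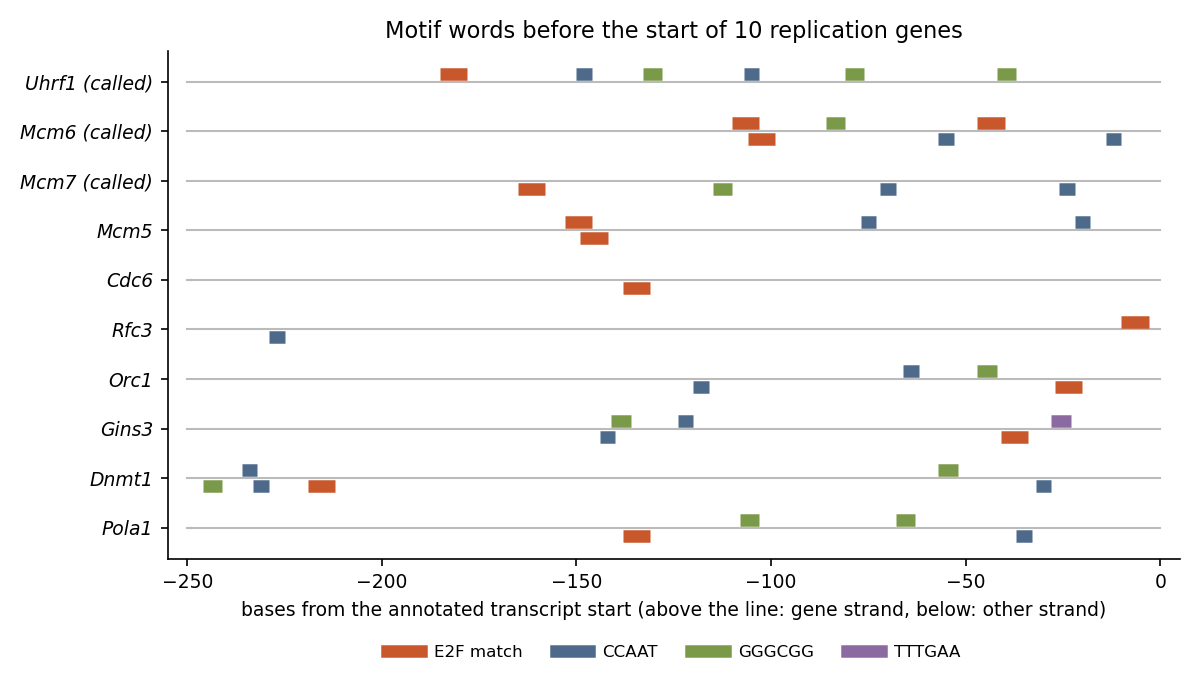
Position of the 4 kinds of word in the 250 bases before the transcript start (x axis, bases from the start) of the 10 replication genes with an E2F form, ordered by the p of their difference, with words on the gene's strand above the line and on the other strand below it. E2F forms stand anywhere from -219 (Dnmt1) to -10 (Rfc3).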

How the data were processed

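RNA was sequenced from 11 samples of primary mouse hippocampal neurons (6 control, 5 mimic) as poly(A) RNA, 50 bp single-end reads. Per the labels, the authors checked reads with FastQC 0.11.5, aligned them to mm10 with STAR 2.5.2b and counted reads per gene with featureCounts of Subread 1.5.1. The deposited per-sample files hold raw counts. The deposited series table holds normalized values, a signal equal to the counts over 1 factor per sample (largest relative deviation 5.08e-10), used only as an alternative after a log2 transform by limma 3.58.1 with a pseudocount of 1. Whether counting used strand is not given in the sources used here.

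The filter kept 17365 genes, those reaching 5 counts in 50% of samples or more, which were tested with edgeR 4.0.16 in R 4.3.3 (TMM scaling, robust quasi-likelihood fit, group as the only term), two-sided, with Benjamini-Hochberg adjustment over all of them and calls at 0.05. The study's tool, DESeq2 1.42.0, was an alternative. CPM use TMM-scaled totals, and levels per kilobase divide by the exon length in GENCODE M21. The fit was tested on simulated data. Members and lists were chosen with earlier results of these data known. All 43 genes are reported by role; sample values are given for called genes and for the most abundant gene per length of a role, and other genes by group or fold change (Mcm2, Prim1, Pcna, Rrm1, Cdc45, Mcm5 and Pola1 were detailed after their values were seen). Of other pathway lists, called genes and the 3 with the next smallest p are named, and of marker lists the called genes. The alternatives changed the tool, scaling, filter, dispersion, input table, depth of control replicate 1, replicate block and each sample in turn. With 17287168 to 48091231 reads per sample, counting error limits genes under 5 CPM most. The values of 1 gene counted among the further replication genes are not reported here.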

Additional observations from a re-analysis of the deposited data

Results flagged for a closer look

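In 90 series of 5 or 6 samples (each replication gene and 2 list medians in each group, on a log2 scale), a single sample was far from the others in 5 cases. Chance alone gives about 1 in 20 (4.5 of 90). All 5 were in the mimic group, and the value given for each is the sample's gap to its nearest neighbour over the group's range. Mcm2 was low in mimic replicate 5 (11.7 CPM, next 13.9, ratio 0.874). Tk1 was low in the same sample (3.65 CPM, next 4.66, ratio 0.741), and Rpa3 was high there (7.25 CPM, next 5.88, ratio 0.72). Clspn was low in mimic replicate 1 (2.74 CPM, next 3.15, ratio 0.865), as was Rrm2 (8.62 CPM, next 10.3, ratio 0.737). For Mcm2, Clspn and Rrm2 the far mimic sample lay on the side of the control samples.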

How the results depend on the processing

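Of 43 replication genes, 8 were called higher in the main fit, 4 with the authors' normalized table, 5 with robust estimation off, and 2 to 7 when 1 sample was left out; none was called lower in any fit. The median log2 fold change stayed between 0.14 and 0.18. Genes called over all tested genes were 495, 785 with no count filter (31595 genes tested), and 218 to 491 with 1 sample left out. Further replication genes called higher were 4, and 0 to 3 with 1 sample left out. Correlations of deviations were -0.0532 to 0.0487 for replicate numbers shared between groups and -0.122 to 0.117 for other numbers. Only 5 pairs share a number, so these values cannot exclude a pairing that acts on some genes. With the number as a replicate block, without control replicate 6, 3 replication genes (Pole, Rrm2 and Uhrf1) and 328 genes in all were called. Direction turned in 4 genes near 0. Fen1 was -0.0091 with control replicate 1 thinned and -0.1046 to 0.1007 with 1 sample left out. Rfc1 was 0.0006 with DESeq2, 0.0009 with RLE factors, 0.0002 with the normalized table, 0.0044 with control replicate 1 thinned, 0.0232 with the block, 0.0092 with upper-quartile factors, and -0.0259 to 0.0298 with 1 sample left out. Rpa1 was -0.0011 with no count filter and -0.0032 to 0.0206 with 1 sample left out, and Tipin -0.0017 to 0.0426. The cause of these changes was not tested.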
